A study of Mus musculus with 8 samples.

Results

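The genes described here make up the endothelin system: the ligand genes Edn1, Edn2 and Edn3, the receptor genes Ednra and Ednrb, and Ece1, which encodes an endothelin-converting enzyme. They were chosen by name, and a probe set was used only where the platform annotation gave it one of these symbols and no other. Of the 6 listed genes 5 had such a probe set, with 12 probe sets in all, out of 18193 genes and 34945 single-gene probe sets. Ednra was not analysed here. For each gene the brightest probe set on average is called its main one, and any others are given beside it.

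The mice were BALB/c, 6 to 9 days of age, and RNA of their small intestine was measured on 8 single-channel oligonucleotide arrays. The groups were ICC-MY cells (3 arrays), ICC-DMP cells (3 arrays) and whole tunica muscularis, which is the layer of gut muscle (2 arrays). ICC are interstitial cells of Cajal, which pace gut contractions and pass on nerve signals, and in this field MY and DMP stand for the myenteric and the deep muscular plexus. All groups share strain and age range, no treatment is labelled, and the sources used here give neither the way the cells were isolated nor how many animals stand behind a sample.

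Endothelins are short peptides cut from longer precursors, first by proprotein convertases such as furin and then by endothelin-converting enzymes. They act on a pair of G protein-coupled receptors: the A receptor prefers the peptides of Edn1 and Edn2, whereas the B receptor, encoded by Ednrb, binds all of them. In the developing gut, Edn3 acts through Ednrb on neural crest cells as they colonise the wall, and mice lacking either gene have no ganglia in the distal bowel. In mature tissue endothelins are best known as constrictors of smooth muscle.

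Edn3 and Ednrb were both highest in ICC-MY, and Ece1 was highest in ICC-DMP, so a window at an annotated start site of each is shown. Each sequence is taken from RefSeq (GRCm38.p6) and runs 5′ to 3′ from 250 bases before to 50 bases after an annotated start site. Capitals mark matches, on either strand, to a CCAAT box (CCAAT) or a GC box (GGGCGG).
Edn3, chr2:174760369-174760668, plus strand: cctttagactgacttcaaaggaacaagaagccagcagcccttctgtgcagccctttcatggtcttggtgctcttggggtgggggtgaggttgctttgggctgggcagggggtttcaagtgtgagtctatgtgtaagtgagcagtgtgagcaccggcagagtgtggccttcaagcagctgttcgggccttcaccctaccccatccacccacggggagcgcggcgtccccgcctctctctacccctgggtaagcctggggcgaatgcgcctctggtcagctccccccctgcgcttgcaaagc
Ednrb, chr14:103843652-103843951, minus strand: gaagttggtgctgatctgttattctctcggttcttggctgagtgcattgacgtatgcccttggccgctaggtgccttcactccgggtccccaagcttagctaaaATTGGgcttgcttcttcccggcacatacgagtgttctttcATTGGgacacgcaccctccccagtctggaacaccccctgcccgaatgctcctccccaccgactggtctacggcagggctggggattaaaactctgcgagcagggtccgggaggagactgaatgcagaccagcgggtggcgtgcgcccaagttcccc
Ece1, chr4:137861987-137862286, plus strand: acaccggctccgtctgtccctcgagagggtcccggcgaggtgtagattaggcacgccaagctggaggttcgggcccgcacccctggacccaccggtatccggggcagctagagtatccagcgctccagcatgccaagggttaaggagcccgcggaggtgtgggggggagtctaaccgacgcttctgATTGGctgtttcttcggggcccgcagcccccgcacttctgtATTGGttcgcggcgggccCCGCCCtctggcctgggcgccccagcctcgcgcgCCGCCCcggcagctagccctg

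The Ednrb window had 2 CCAAT matches, beginning at -146 and -106 relative to its start site, and it lies inside the annotated gene, whose 5′ end is further upstream. The Ece1 window shown had 2 CCAAT and 2 GC box matches, but Ece1 has 4 annotated windows, among which the array does not choose. They differ in content: the Ece1 window from 137913308 held 0 matches to either motif, and that from 137920543 held 0 CCAAT and 1 GC box match. The Edn3 window held 0 matches to either motif. It also held 0 matches to a TATA box (TATAAA), to the AP-1 element TGANTCA and to the SOX cores ACAAAG and ACAATG. Among all 32851 windows, 37.4% had a CCAAT match and 35.7% a GC box match. The shares were 13.6% for the TATA box, 7.81% for the AP-1 element and 28.6% for the SOX cores. On the same build, Edn3 lies at positions 174760619 to 174784042 of chromosome 2, Ednrb at 103814615 to 103844508 of chromosome 14 and Ece1 at 137862237 to 137965229 of chromosome 4. Edn2 lies at 120161206 to 120167360 of chromosome 4 and Edn1 at 42301476 to 42307990 of chromosome 13. The probes' own positions are not in the files, so exon or UTR cannot be assigned to a value.

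The values are log2 expression values as deposited, so a difference of 1 is a 2-fold change. Array medians ran from 4.18 to 4.31, and the number of arrays limits the precision of every value below. Values were less spread on 2 narrow-range arrays, ICC-MY replicate 1 and tunica muscularis replicate 1 (SD of all values 1.98 and 2.06, where the others had 2.22 to 2.31). The actin probe sets read further apart between their 3′ and 5′ ends, a sign of RNA quality, on ICC-MY replicate 3 (4.28) and ICC-DMP replicate 3 (4.66) than on the other arrays (2.53 to 3.53). Kit, the receptor that marks ICC, read 10.81 to 12.42 in ICC-MY and 10.84 to 11.34 in ICC-DMP, against 7.20 and 8.43 in tissue. Against tissue, 7 of 9 measured markers of ICC passed as higher in ICC-MY and 4 in ICC-DMP, where 4.05% and 3.72% of all genes did. The list was chosen with earlier results of these data known, so these counts are not an independent check of the samples. Some members differed between the classes, such as Prkcq (11.38 in ICC-MY, 6.86 in ICC-DMP) and, the other way, Thbs4 (10.16 and 12.87). In such bulk samples, fewer cells of a type and less RNA per cell cannot be told apart.

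Differences come from 1 limma fit of all 8 arrays, with p-values adjusted by Benjamini-Hochberg over all 18193 genes and a call at an adjusted p under 0.05. Between the ICC classes 4 of the 5 genes were called, Edn3 and Ednrb as higher in ICC-MY and Ece1 and Edn2 as lower. Over all genes 8.67% were called in that comparison (3.30% higher, 5.36% lower), and 2617 genes in place of 1577 with the replicate number as a block. Against tissue, 4 of the 5 were called in ICC-MY (3 higher, 1 lower), where 13.8% of all genes were (4.05% higher, 9.78% lower). In ICC-DMP 3 of the 5 were called (1 higher, 2 lower), where 11.0% of all genes were (3.72% higher, 7.32% lower). For the mean of both classes 3 were called (2 higher, 1 lower), against 13.0% of all genes (3.69% higher, 9.32% lower), and the arrays of 2 did not overlap tissue (19.9% of all genes). All 5 genes had non-overlapping arrays between ICC-MY and ICC-DMP (25.6% of all genes did), and between ICC-MY and tissue (34.2% of all genes). Between ICC-DMP and tissue the arrays of 3 genes did not overlap (38.5% of all genes).

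**Figure D1:**
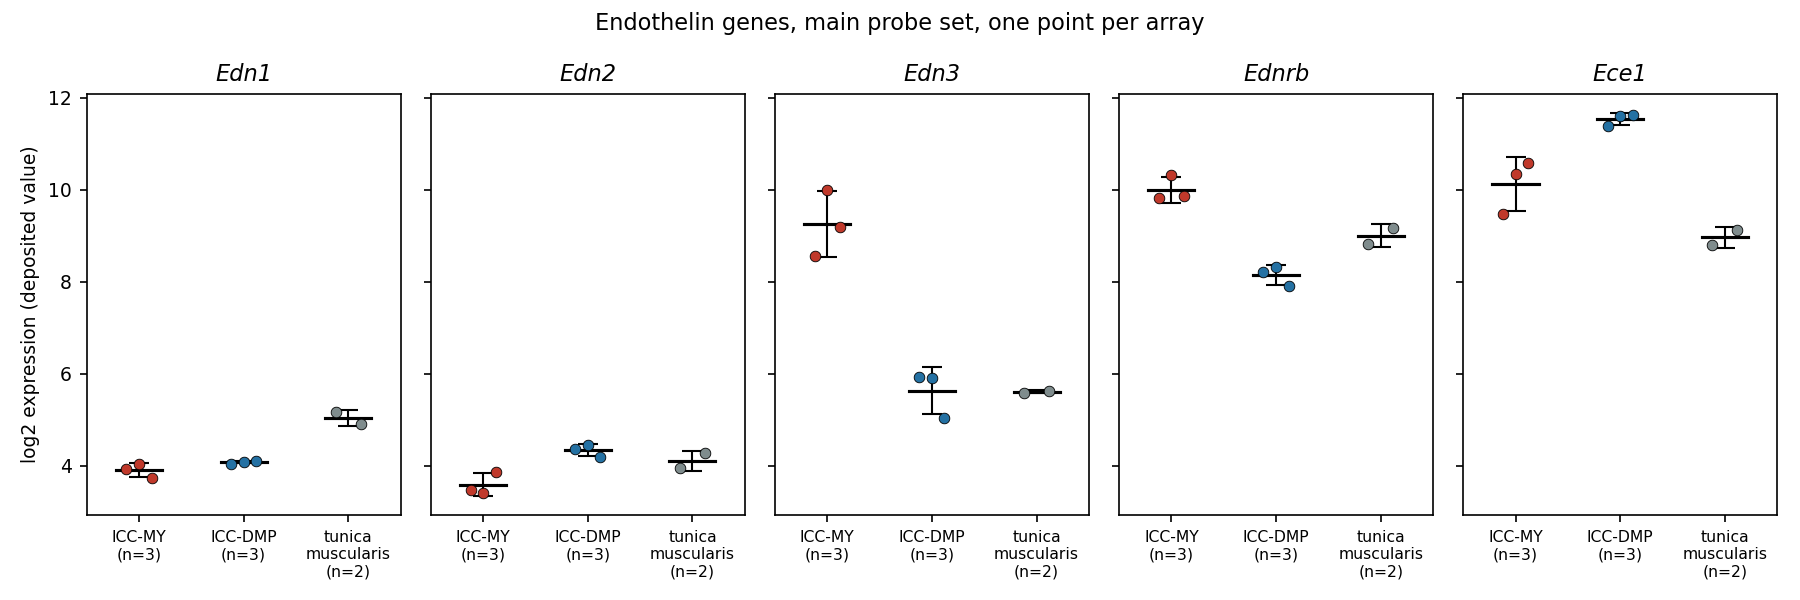
Log2 expression of the main probe set of Edn1, Edn2, Edn3, Ednrb and Ece1, with 1 point per array, the horizontal bar at the group mean and the whiskers at ± 1 SD. Edn3 lies between 8.56 and 10.00 in ICC-MY, above all other arrays, Ednrb is lowest in ICC-DMP, and Ece1 is highest there.

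Edn3, the ligand that acts through the B receptor on enteric neural crest cells, was far higher in ICC-MY than in either other group. Its main probe set read 8.56, 10.00 and 9.20 in ICC-MY, 5.94, 5.91 and 5.05 in ICC-DMP, and 5.59 and 5.63 in tissue. All ICC-MY arrays lay far above every array of the other groups, and ICC-DMP overlapped tissue. Group means were 9.26 ± 0.72 (SD, n = 3) in ICC-MY, 5.63 ± 0.51 (n = 3) in ICC-DMP and 5.61 ± 0.03 (n = 2) in tissue. The ICC-MY mean exceeded that of ICC-DMP by 3.62 (SE 0.37, adjusted p = 0.000501 in limma), a 12.3-fold difference, and only 26 of 18193 genes differed more in that direction. Against tissue it was higher by 3.65 (SE 0.42, adjusted p = 0.000632), or 12.5-fold. Both calls held under all 18 alternatives run, at 2.55 to 3.97 between the classes and 2.58 to 3.99 against tissue.

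ICC-DMP and tissue were not distinguishable in Edn3. The difference was 0.02 (SE 0.42, adjusted p = 0.989), and its 95% interval ran from -0.93 to 0.98, an interval that spans about 2-fold either way. The mean of both ICC classes exceeded tissue by 1.84 (SE 0.37, adjusted p = 0.0136). That figure averages one class at 9.26 with one at the tissue level. The call was lost without tunica muscularis replicate 1 (1.81, adjusted p = 0.0764) or replicate 2 (1.86, adjusted p = 0.0731), which leaves a single tissue array assumed to vary like the others.

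The other 3 Edn3 probe sets had the same order of groups in ICC-MY against the rest, at lower levels. Probe set 1441923_s_at read 6.77, 8.08 and 6.99 in ICC-MY, 4.10, 4.60 and 3.71 in ICC-DMP, and 4.24 and 3.46 in tissue. Probe set 1441924_x_at read 6.13, 7.45 and 7.19 in ICC-MY, 4.76, 5.01 and 4.63 in ICC-DMP, and 4.66 and 5.20 in tissue. The dimmest, 1421136_at, read 4.21, 5.53 and 4.78 in ICC-MY, 3.11, 3.80 and 3.65 in ICC-DMP, and 3.69 and 3.52 in tissue. On every one of them the 3 ICC-MY arrays lay above all 5 others. Fitted among all single-gene probe sets, all 4 were called between the classes, with differences of 3.62, 3.14, 2.13 and 1.32, and 3 of 4 against tissue. The dimmest missed the threshold there (1.24, SE 0.36, adjusted p = 0.0658 over all probe sets). By the maker's naming, the suffixes _s and _x mark probes that can match more than one transcript.

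Edn1, the vascular endothelin gene that endothelial cells secrete, was lower in both ICC classes than in the muscle coat. It read 3.94, 4.04 and 3.73 in ICC-MY and 4.05, 4.09 and 4.10 in ICC-DMP, against 5.17 and 4.91 in tissue. The tissue arrays lay above all 6 ICC arrays. The difference was -1.14 in ICC-MY (SE 0.16, adjusted p = 0.00168) and -0.96 in ICC-DMP (SE 0.16, adjusted p = 0.00514), so that tissue was 2.2-fold and 1.95-fold higher. Both calls held under all 17 alternatives that could be computed. The ICC classes differed by -0.17 (SE 0.14, adjusted p = 0.633, 95% interval -0.49 to 0.15).

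Edn2, whose peptide resembles that of Edn1 in receptor preference, was the only ligand gene lower in ICC-MY than in ICC-DMP by the test. It read 3.47, 3.42 and 3.87 in ICC-MY, 4.37, 4.45 and 4.19 in ICC-DMP, and 3.95 and 4.27 in tissue. The ICC-MY arrays lay below all others, and tissue overlapped ICC-DMP. The classes differed by -0.75 (SE 0.17, adjusted p = 0.0312). That call was lost without ICC-MY replicate 1 (-0.69, adjusted p = 0.0676) or 2 (-0.67, adjusted p = 0.111), and on leaving out ICC-DMP replicate 1 (-0.74, 0.124), 2 (-0.69, 0.138) or 3 (-0.82, 0.0645). Against tissue neither ICC-MY (-0.52, SE 0.19, adjusted p = 0.131) nor ICC-DMP (0.23, SE 0.19, adjusted p = 0.62) passed. Edn1 and Edn2 each had 1 probe set, and both were removed by a filter that asks for a value above 5 on at least 2 arrays. The files hold no detection calls, so whether such low values reflect transcript was not tested.

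Ednrb, the receptor that binds all endothelins, followed Edn3 in being highest in ICC-MY, but with tissue between the classes. Its main probe set read 9.82, 10.33 and 9.86 in ICC-MY, 8.22, 8.32 and 7.91 in ICC-DMP, and 8.83 and 9.18 in tissue. No array of one group overlapped another group. Means were 10.00 ± 0.29 (SD, n = 3) in ICC-MY, 8.15 ± 0.22 (n = 3) in ICC-DMP and 9.00 ± 0.25 (n = 2) in tissue. ICC-MY exceeded ICC-DMP by 1.86 (SE 0.20, adjusted p = 0.000585), or 3.62-fold, a call that held under all 18 alternatives at 1.59 to 2.04.

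The steps from each ICC class to tissue were smaller for Ednrb and less firm. ICC-MY was higher than tissue by 1.0 (SE 0.22, adjusted p = 0.0183), but not with only these groups fitted (adjusted p = 0.0664), with limma-trend (0.0544) or without tunica muscularis replicate 1 (0.83, adjusted p = 0.102). ICC-DMP was lower than tissue by the test, at -0.86 (SE 0.22, adjusted p = 0.0426), and that call was lost in 10 of 18 alternatives. Among these were the averaging of its probe sets (-0.60, adjusted p = 0.104) and leaving out ICC-MY replicate 3 (-0.86, adjusted p = 0.0612). It also went on leaving out ICC-DMP replicate 1 (-0.89, 0.11), 2 (-0.94, 0.0804) or 3 (-0.74, 0.136), or tunica muscularis replicate 1 (-1.03, 0.0614) or 2 (-0.68, 0.19). The mean of both classes differed from tissue by 0.07 (SE 0.20, adjusted p = 0.91, 95% interval -0.38 to 0.52).

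The remaining Ednrb probe sets kept ICC-MY on top. Probe set 1423594_a_at read 6.19, 7.35 and 6.73 in ICC-MY, 4.72, 5.44 and 4.50 in ICC-DMP, and 5.44 and 5.47 in tissue. Probe set 1426314_at read 4.70, 4.94 and 4.44 in ICC-MY, 3.88, 3.49 and 3.63 in ICC-DMP, and 4.25 and 3.81 in tissue. All 3 probe sets were called between the ICC classes, with differences of 1.86, 1.87 and 1.03, whereas against tissue only the main one was called in either class.

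Ece1, which makes active endothelin from its precursor, ran the other way and was highest in ICC-DMP. Its main probe set read 9.47, 10.34 and 10.59 in ICC-MY, 11.40, 11.61 and 11.63 in ICC-DMP, and 8.81 and 9.13 in tissue. The 3 groups did not overlap. Means were 10.13 ± 0.59 (SD, n = 3) in ICC-MY, 11.55 ± 0.13 (n = 3) in ICC-DMP and 8.97 ± 0.23 (n = 2) in tissue. ICC-DMP exceeded tissue by 2.58 (SE 0.31, adjusted p = 0.00101), or 5.96-fold, a call kept in all 18 alternatives at 1.84 to 2.74, and 112 genes differed more in that direction.

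ICC-MY was lower in Ece1 than ICC-DMP, with a difference of -1.41 (SE 0.28, adjusted p = 0.015), and ICC-DMP was thus 2.66-fold higher. Without ICC-DMP replicate 1, 2 or 3 the difference was -1.49, -1.38 or -1.37 and missed the threshold (adjusted p = 0.0517, 0.0698 and 0.0629). ICC-MY also exceeded tissue by 1.16 (SE 0.31, adjusted p = 0.0411). That call was lost in 10 of 18 alternatives, among them leaving out ICC-MY replicate 3 (0.93, adjusted p = 0.101). Others were leaving out ICC-MY replicate 2 (1.06, 0.113), ICC-DMP replicate 1, 2 or 3 (1.16 each, 0.0745, 0.0767 and 0.0697), or tunica muscularis replicate 1 (1.0, 0.176) or 2 (1.32, 0.0905). The mean of both classes exceeded tissue by 1.87 (SE 0.28, adjusted p = 0.00286), a call that held under all 17 alternatives.

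A second Ece1 probe set gave the same order of groups and the dimmest did not. Probe set 1434177_at read 6.88, 7.17 and 7.19 in ICC-MY, 8.96, 8.20 and 8.39 in ICC-DMP, and 5.87 and 5.53 in tissue. It was called in all comparisons: -1.44 between the classes (SE 0.21, adjusted p = 0.00452 over all probe sets), 1.38 in ICC-MY against tissue and 2.82 in ICC-DMP against tissue. Probe set 1441423_at stayed between 2.89 and 3.58 on all 8 arrays, with a difference of 0.03 between the classes (adjusted p = 0.971), and no group stood apart.

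**Figure D2:**
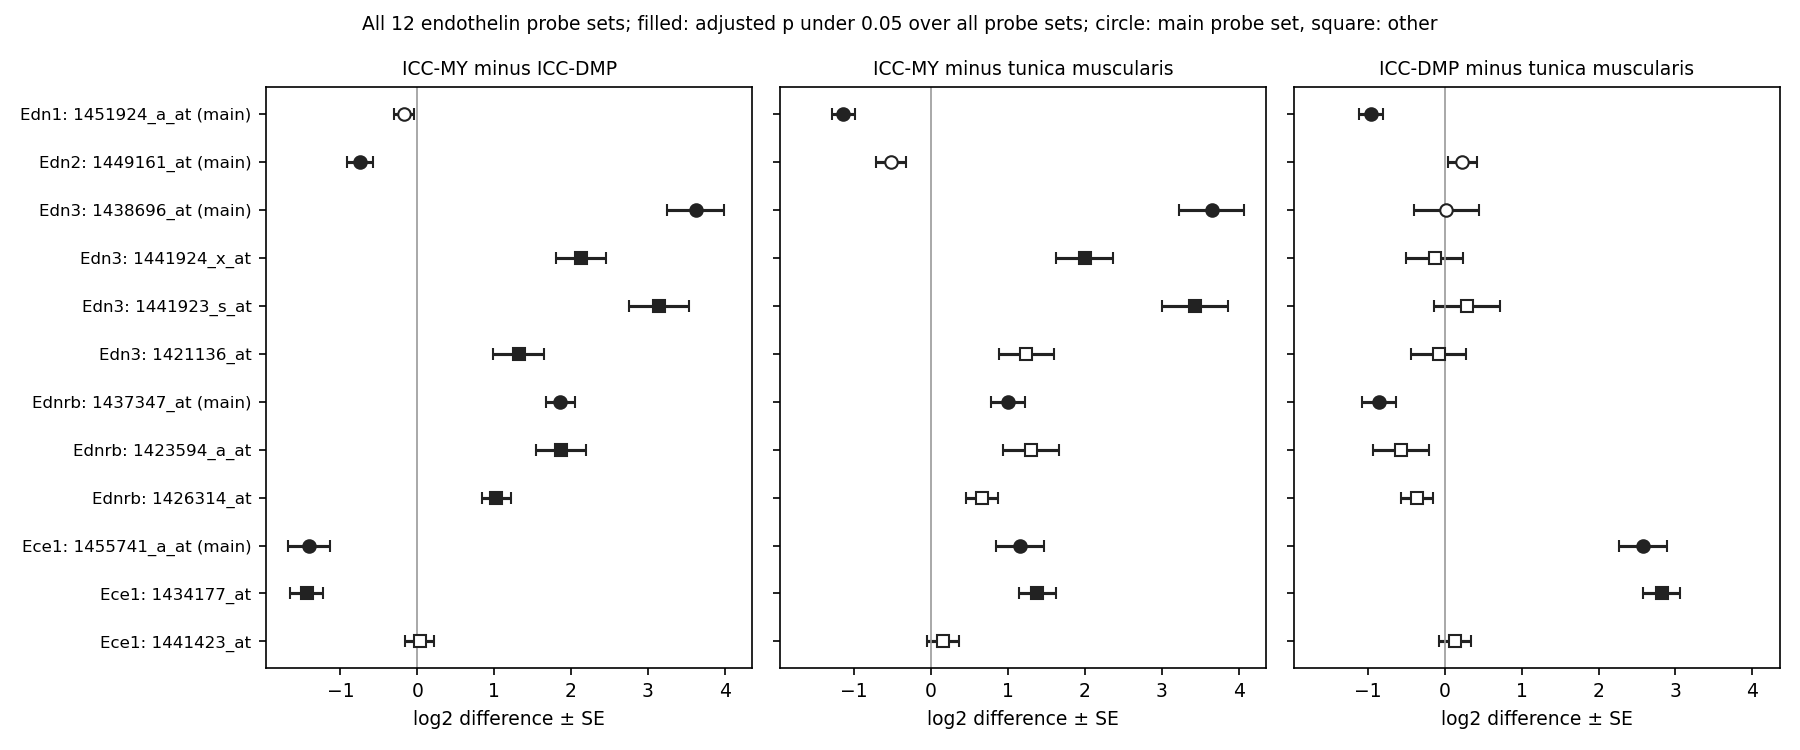
Log2 differences ± SE for all 12 endothelin probe sets in the comparisons ICC-MY minus ICC-DMP, ICC-MY minus tunica muscularis and ICC-DMP minus tunica muscularis. Circles are main probe sets, squares the others, and filled symbols have an adjusted p under 0.05 over all single-gene probe sets; between the ICC classes all 4 Edn3 and all 3 Ednrb probe sets lie right of 0 and are filled.

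The genes with the pattern most like each of these were found by Pearson's r over the 8 arrays, which mostly reflects the 3 group means and is given as a description. For Edn3 these were Prkcq (r = 0.992), which encodes protein kinase C theta, Car2 (0.991), a carbonic anhydrase gene, Pcp4l1 (0.991), Lbhd2 (0.988) and Hmga2-ps1 (0.988). Car2, for example, averaged 11.83 in ICC-MY, 8.64 in ICC-DMP and 8.59 in tissue. For Ednrb they were Iqgap2 (0.992), Tslp (0.99), Utrn (0.99), Efna5 (0.989) and Pts (0.987). Efna5, an ephrin ligand gene, averaged 10.94 in ICC-MY, 7.69 in ICC-DMP and 9.58 in tissue. Those nearest to Ece1 were Gpd2 (0.992), Pde9a (0.987), Adcy9 (0.987), Limch1 (0.985) and Ccdc158 (0.985). The phosphodiesterase gene Pde9a averaged 7.86 in ICC-MY, 9.43 in ICC-DMP and 6.68 in tissue. Edn1 was closest to Tdrkh (0.996), Frrs1l (0.987), Nrn1 (0.987), Eno2 (0.986) and Flrt1 (0.986), among which Eno2 encodes the neuronal enolase. Edn2 was closest to Hlf (0.971), Septin6 (0.965), Gucy1a1 (0.964), Aldh1a2 (0.963) and Nell1 (0.963).

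Other genes of the pathway were taken from 5 lists with 57 entries, of which 51 were measured. In ICC-MY against tissue 3 were higher and 13 lower (31.4% called, median -0.12), where 13.8% of all genes were called with a median of -0.02. In ICC-DMP against tissue 4 were higher and 7 lower (21.6%, median 0.01), where 11.0% of all genes were called with a median of -0.04. Between ICC-MY and ICC-DMP 2 were higher and 8 lower (19.6%, median 0.00), where 8.67% of all genes were called with a median of 0.02.

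A list of 12 genes held enzymes that process or degrade endothelins together with relatives of such enzymes, not all of which are known to act on endothelins. In ICC-MY against tissue 0 were higher and 2 lower (13.8% of all genes called). In ICC-DMP 2 were higher and 1 lower (11.0%). The convertase gene Pcsk6 differed most. It averaged 5.99 ± 0.21 (SD, n = 3) in ICC-MY, 8.73 ± 0.30 (n = 3) in ICC-DMP and 6.92 ± 0.03 (n = 2) in tissue, thus lower in ICC-MY than in ICC-DMP by 2.74 (SE 0.19, adjusted p = 8.1e-05). Like Ece1, it was highest in ICC-DMP, where it exceeded tissue by 1.81 (SE 0.21, adjusted p = 0.000851). Unlike Ece1, it was lower in ICC-MY than in tissue (-0.93, SE 0.21, adjusted p = 0.0204), a call lost without ICC-MY replicate 3 (-0.81, 0.0596) and without tunica muscularis replicate 1 (-0.91, 0.0802) or 2 (-0.95, 0.0789). Pcsk1, a convertase of neuroendocrine cells, was lower than in tissue by 1.03 in each class (difference -1.03, SE 0.15, adjusted p = 0.0021 and 0.00263). Pcsk7 was higher in ICC-DMP than in tissue (0.69, SE 0.16, adjusted p = 0.0253), a call lost in 9 of 18 alternatives, with values from 0.61 without tunica muscularis replicate 1 (adjusted p = 0.125) to 0.78 without replicate 2 (0.0526), and also without ICC-DMP replicate 1 (0.72, 0.0761), 2 (0.74, 0.063) or 3 (0.62, 0.0923). Furin itself did not pass (0.27 and 0.81, adjusted p = 0.721 and 0.171), nor did Ece2, the second converting enzyme gene (0.32 and 0.15, adjusted p = 0.54 and 0.851).

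Of 9 G protein genes that carry receptor signals, 0 were higher and 1 lower in ICC-MY against tissue (13.8% of all genes called), and 1 was higher and 1 lower in ICC-DMP (11.0%). Gnaq, which links endothelin receptors to phospholipase C, averaged 9.66 ± 0.60 in ICC-MY, 10.00 ± 0.10 in ICC-DMP and 9.68 ± 0.76 in tissue, and did not pass. Gna13, a G protein alpha subunit gene, was higher in ICC-DMP than in tissue by 1.61 (SE 0.33, adjusted p = 0.0164) and lower in ICC-MY than in ICC-DMP (-1.41, SE 0.30, adjusted p = 0.0208). The first was lost on leaving out ICC-DMP replicate 2 (1.61, 0.0589) or 3 (1.51, 0.0617) or tunica muscularis replicate 1 (1.35, 0.101), and the second without ICC-DMP replicate 1 (-1.50, 0.0621), 2 (-1.41, 0.0832) or 3 (-1.31, 0.0858). Gnao1, a G protein gene of neurons, was lower than in tissue in ICC-MY (-0.88, SE 0.18, adjusted p = 0.014) and ICC-DMP (-1.05, SE 0.18, adjusted p = 0.00739). With its probe sets averaged neither passed (-0.23 and -0.33, adjusted p = 0.288 and 0.124), and the ICC-MY call was also lost with only these groups fitted (-0.88, 0.0548), without tunica muscularis replicate 1 (-0.68, 0.0809) and without both narrow-range arrays (-0.68, 0.0677).

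Downstream effectors were lower than in tissue for 4 of 11 in ICC-MY and 2 of 11 in ICC-DMP, with 0 higher in each. The shares over all genes were 9.78% lower and 4.05% higher in ICC-MY, and 7.32% and 3.72% in ICC-DMP. Plcb1, a phospholipase C gene, averaged 5.36 ± 0.20 in ICC-MY, 5.94 ± 0.31 in ICC-DMP and 8.29 ± 0.58 in tissue, and differed from tissue by -2.93 in ICC-MY (SE 0.28, adjusted p = 0.000256) and -2.35 in ICC-DMP (SE 0.28, adjusted p = 0.00101). With its probe sets averaged the differences were -0.76 and -0.67, still called. Plcb4, another of that family, was lower in ICC-MY (-2.69, SE 0.44, adjusted p = 0.00443, and -0.84 with probe sets averaged). The calcium store channel gene Itpr3 was lower in ICC-MY (-1.47, SE 0.20, adjusted p = 0.00161) and ICC-DMP (-1.68, SE 0.20, adjusted p = 0.00101). Trpc6, a receptor-operated cation channel gene, separated the classes: 3.02 ± 0.12 in ICC-MY, 5.09 ± 0.08 in ICC-DMP and 4.72 ± 0.12 in tissue, lower in ICC-MY than in ICC-DMP by 2.07 (SE 0.13, adjusted p = 5.65e-05).

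Of 11 genes that switch receptor signals off, 4 were lower in ICC-MY than in ICC-DMP and 0 higher, where 5.36% of all genes were lower, and 7 did not pass. Among those 7, differences ran from -0.71 for Rgs5 to 0.99 for Rgs16. Smooth muscle markers were lower in ICC-MY than in ICC-DMP for 6 of 8, and their part in these values was not tested. Rgs2, which shortens Gq signals, averaged 7.08 ± 0.53 in ICC-MY, 9.98 ± 0.31 in ICC-DMP and 10.87 ± 1.11 in tissue, lower in ICC-MY than in ICC-DMP by 2.89 (SE 0.42, adjusted p = 0.00317) and than in tissue by 3.79 (SE 0.47, adjusted p = 0.000964). Rgs4, a related regulator, averaged 3.38 ± 0.06 in ICC-MY, 5.32 ± 0.25 in ICC-DMP and 7.32 ± 0.45 in tissue. It was lower than in tissue in both classes (-3.94 and -2.0, adjusted p = 1.59e-05 and 0.000701, and -1.78 and -1.06 with probe sets averaged). Between the classes Rgs4 differed by -1.94 (SE 0.20, adjusted p = 0.000506, and -0.71 with probe sets averaged). Arrb1, which encodes a beta-arrestin, was lower in ICC-MY than in ICC-DMP (-2.78, SE 0.45, adjusted p = 0.00543). So was the receptor kinase gene Grk3 (-1.37, SE 0.25, adjusted p = 0.0101), which missed the threshold without ICC-DMP replicate 1 (-1.35, 0.0521) or 2 (-1.32, 0.054). Grk3 was also lower in ICC-MY than in tissue (-1.62, SE 0.28, adjusted p = 0.00532), and Rgs16 was higher there (1.87, SE 0.35, adjusted p = 0.00865, and 1.21 with probe sets averaged).

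Genes listed for the neural crest and Ednrb moved in both directions, but in ICC-DMP the only one called higher than in tissue was Mitf. In ICC-MY against tissue 2 of 8 measured were higher (Gdnf and Mitf) and 3 lower, where 13.8% of all genes were called. In ICC-DMP 1 was higher and 2 lower, where 11.0% of all genes were called. Ret, the receptor that works beside Ednrb in crest cells, averaged 5.65 ± 0.23 in ICC-MY, 4.19 ± 0.09 in ICC-DMP and 9.01 ± 0.39 in tissue. Against tissue it differed by -3.36 in ICC-MY (SE 0.21, adjusted p = 2.61e-05, and -1.83 with probe sets averaged) and by -4.82 in ICC-DMP (SE 0.21, adjusted p = 6.53e-06, and -2.51). ICC-MY exceeded ICC-DMP in Ret by 1.46 (SE 0.19, adjusted p = 0.00168, and 0.68 with probe sets averaged). Its ligand gene Gdnf averaged 8.15 ± 0.41 in ICC-MY, 7.05 ± 0.35 in ICC-DMP and 6.78 ± 0.02 in tissue. Gdnf was higher in ICC-MY than in ICC-DMP by 1.10 (SE 0.24, adjusted p = 0.027), a call lost without ICC-MY replicate 2 (1.15, 0.0659) or 3 (0.88, 0.0717) or ICC-DMP replicate 1 (1.10, 0.105) or 2 (0.93, 0.113). Against tissue it was higher in ICC-MY by 1.36 (SE 0.27, adjusted p = 0.0117), but not without tunica muscularis replicate 1 (1.35, 0.0529) or 2 (1.38, 0.0563).

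The co-receptor gene Gfra1 was lower in ICC-MY than in ICC-DMP (-1.89, SE 0.21, adjusted p = 0.000755, and -0.75 with probe sets averaged) and than in tissue (-1.42, SE 0.23, adjusted p = 0.00434, and -0.62). L1cam, an adhesion gene of neural crest and neurons, was lower than in tissue in ICC-MY (-3.07, SE 0.25, adjusted p = 9.8e-05) and ICC-DMP (-2.70, SE 0.25, adjusted p = 0.000241), at -1.56 and -1.42 with probe sets averaged. Mitf was on this list but is a transcription factor gene of pigment cells and mast cells. It was higher than in tissue in ICC-MY (1.93, SE 0.22, adjusted p = 0.000685) and ICC-DMP (1.27, SE 0.22, adjusted p = 0.0076, and 0.83 with probe sets averaged). Sox10, which activates Ednrb in crest cells, averaged 6.26 ± 0.39 in ICC-MY, 6.18 ± 0.08 in ICC-DMP and 7.14 ± 0.59 in tissue, and passed in no comparison (adjusted p = 0.0946 and 0.0805 against tissue, 0.934 between the classes).

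**Figure D3:**
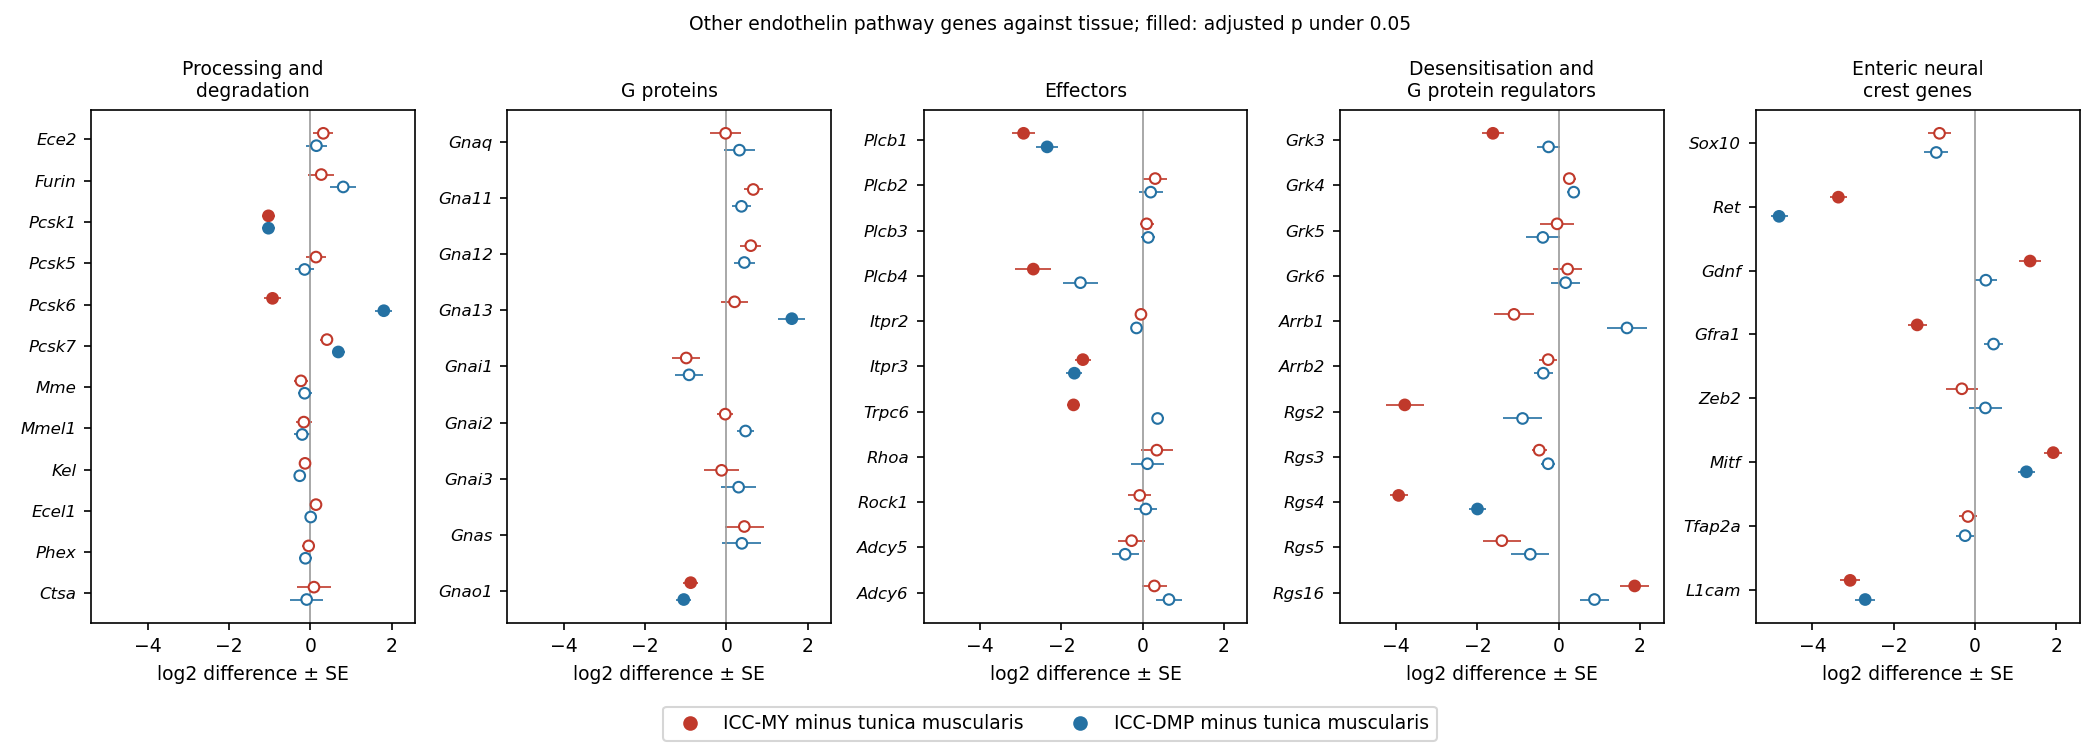
Log2 differences ± SE against tunica muscularis for the 51 measured genes of the 5 pathway lists, red for ICC-MY and blue for ICC-DMP, filled where the adjusted p is under 0.05. Pcsk6 lies on opposite sides of 0 in the ICC classes (-0.93 and 1.81), and Ret is far left in both (-3.36 and -4.82).

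Markers of other cells in the gut wall were compared in the same samples, because Ednrb is also carried by enteric glia, and Edn1 and Ece1 by endothelium. For all marker counts below, the shares over all genes were 4.05% higher and 9.78% lower in ICC-MY against tissue. They were 3.72% higher and 7.32% lower in ICC-DMP against tissue, and 3.30% higher and 5.36% lower in ICC-MY against ICC-DMP. The mean level of 6 glia and Schwann cell markers ran from 4.44 to 4.59 in ICC-MY and 4.89 to 5.12 in ICC-DMP, against 6.38 and 6.68 in tissue. Of these 6, 3 were lower than in tissue in both classes, led by Fabp7 (-4.83 and -3.27). Between the ICC classes, Cdh19 and Erbb3 were lower in ICC-MY (-1.04 and -0.91), and the other 4 did not pass: Fabp7 differed by -1.56, Sox10 by 0.08, S100b by 0.36 and Gfap by 0.05. Neuron markers were lower than in tissue for 8 of 9 in each class and for 0 of 9 between the classes in limma.

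For endothelium, the mean of 12 markers ran from 4.33 to 5.14 in ICC-MY and 4.15 to 4.31 in ICC-DMP, against 4.83 and 5.11 in tissue. In ICC-MY, where Edn1 was lower than in tissue, 1 of the 12 was lower (Vwf, -2.53, SE 0.27) and 0 were higher. Some of the list averaged low in every group, such as Pecam1 (3.39 in ICC-MY, 3.08 in ICC-DMP and 3.30 in tissue). Tie1 (3.37, 3.18 and 3.37) and Erg (3.80, 3.61 and 3.83) did too. Such markers had little room to read lower, which limits these counts and the list mean. Members with higher tissue levels did not pass in ICC-MY against tissue either: Esam (7.63 in tissue, -0.50), Kdr (6.71, -0.40) and Egfl7 (6.39, -0.24). Nor did Plvap (5.78, 0.39) and Cldn5 (5.55, 0.15). In ICC-DMP 4 of the 12 were lower, Vwf (-2.82) and Esam (-2.57) among them, and 1 was higher, Plvap (3.36, SE 0.26). Between the classes 5 were higher in ICC-MY, such as Esam (2.07) and Cldn5 (1.95), and Plvap was lower (-2.97). The part of glia, neurons and endothelium in the endothelin values was not tested.

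**Figure D4:**
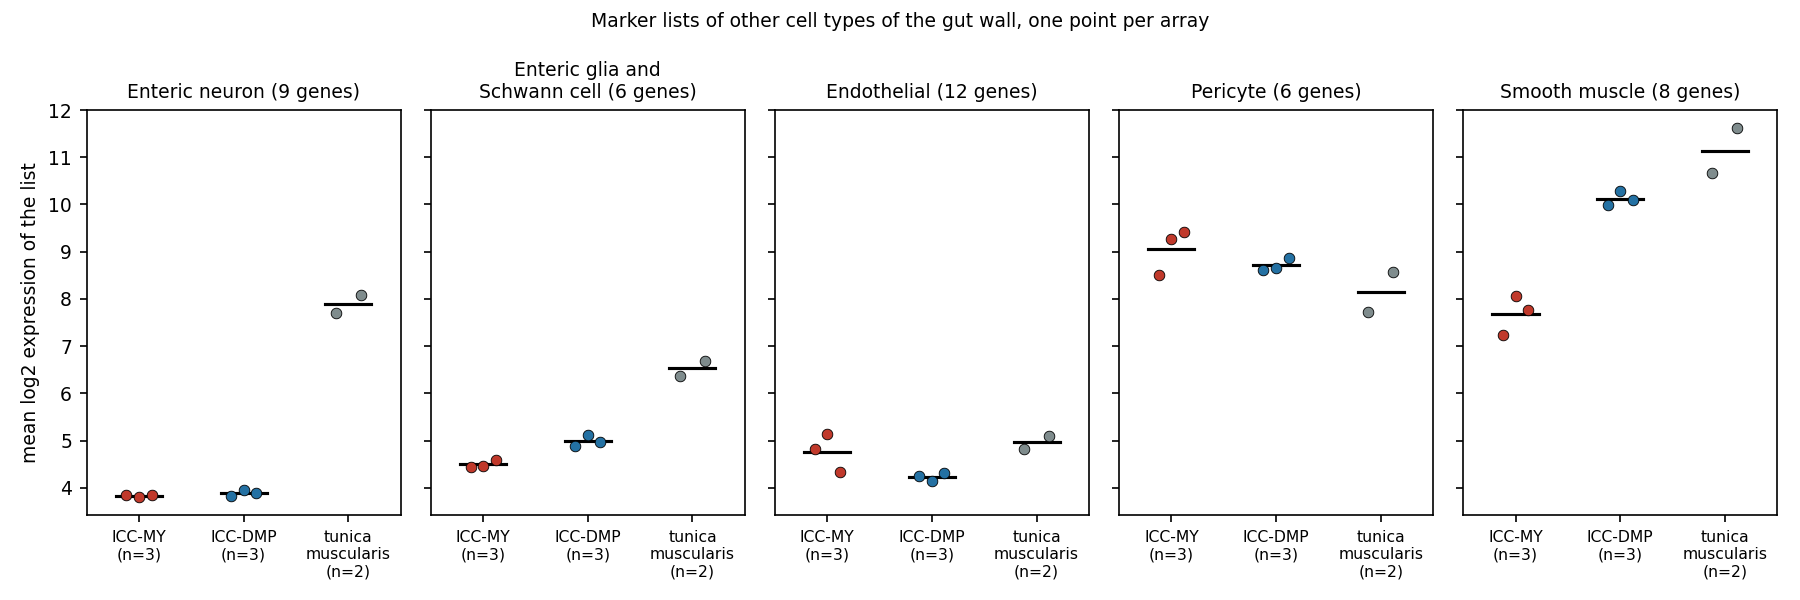
Mean log2 expression of 5 marker lists, with 1 point per array and the bar at the group mean. Neuron and glia markers are highest in tissue, endothelial markers overlap between ICC-MY and tissue, and smooth muscle markers are lowest in ICC-MY, at 7.24 to 8.06 against 10.67 and 11.61 in tissue.

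Pericyte markers were higher than in tissue for 2 of 6 in ICC-MY and 2 of 6 in ICC-DMP, and 0 were called lower. Pdgfrb differed by 3.37 (SE 0.36) and 1.90 (SE 0.36), whereas Rgs5 read lower (-1.40 and -0.70) and did not pass. Between the classes 2 of 6 were higher in ICC-MY, Pdgfrb (1.47) and Notch3 (1.40), and 0 were called lower. The part of pericytes in the endothelin values was not tested. Smooth muscle markers, of the cells on which endothelins act as constrictors, were lower than in tissue for 7 of 8 in ICC-MY and 4 of 8 in ICC-DMP. They were lower in ICC-MY than in ICC-DMP for 6 of 8. All 8 immediate early genes on the list were higher than in tissue in both classes (medians 3.61 and 5.11), and 5 of the 8 were lower in ICC-MY than in ICC-DMP, and their part in the endothelin values was not tested. Fibroblast markers were lower than in tissue for 4 of 7 in ICC-MY and 1 of 7 in ICC-DMP, mesothelial markers for 6 of 6 in each class, epithelial markers for 2 of 6 in each and macrophage markers for 4 of 6 in each. The mean of the epithelial markers was uneven within tissue, at 5.42 on tunica muscularis replicate 1 and 7.35 on replicate 2. Its bearing on the endothelin values was not tested.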

How the data were processed

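The deposited table holds log2 expression values for 45101 probe sets on 8 arrays, from 1.87 to 14.02. Per the submitters' processing notes RMA and limma were used, without versions or roles, and no source used here says whether the arrays were normalized together. Per the labels' protocols about 50 ng of RNA was amplified by in vitro transcription and then amplified again before biotin labelling.

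Values were used as deposited, with the 64 control probe sets left out. Of the rest, 34945 named 1 gene in the platform annotation, 932 several, and 9160 were not listed there. The Entrez identifiers of 34741 were found in the RefSeq table (GRCm38.p6), and 0 symbols changed. Groups came from the titles. The model was limma 3.58.1 (R 4.3.3), fitted across all 18193 genes (residual degrees of freedom 5, prior 3.17), 2-sided, for 4 contrasts. The other probe sets were fitted among all 34945. Errors are SE for differences and SD for means. The titles say biological replicates but not separate animals. The p-values test differences against a variance estimated from these samples, which may not stand for the variation between animals.

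Deviations from the group means were correlated between arrays with the same replicate number (r from 0.16 to 0.61 over 7 pairs). Arrays with different numbers were not compared in this way, and the narrow-range arrays share a number, so these r do not show that samples were paired. The main fit had no term for the replicate number, which entered as a block only among the alternatives. The fit was also run on simulated data with independent noise on each array. Those data lacked the shared deviations of the real arrays, so that run is no support for any call given here. The members, lists and tests were chosen with earlier results of these data known. Named genes were the endothelin genes, up to 4 called members per list and contrast, the 5 genes nearest to each called member with a range of at least 1 and without clone names, and Kit. Furin, Ece2, Gnaq, Sox10, Rgs5, S100b, Gfap, Pecam1, Tie1 and Erg fall outside this rule and were chosen after their values were seen. Alternatives for the other pathway genes were added after seeing the data.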

Additional observations from a re-analysis of the deposited data

Results flagged for a closer look

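The effect against tissue differed between the ICC classes for 4 of the 5 endothelin genes, by the test of the difference itself, which is ICC-MY minus ICC-DMP in limma since both effects share the tissue arrays. For Edn3 the effects were 3.65 in ICC-MY and 0.02 in ICC-DMP, and the difference was 3.62 (adjusted p = 0.000501). For Ednrb they were 1.0 and -0.86 (difference 1.86, adjusted p = 0.000585). For Ece1 they were 1.16 and 2.58 (difference -1.41, adjusted p = 0.015), and for Edn2 -0.52 and 0.23 (difference -0.75, adjusted p = 0.0312). The calls of Ece1 and Edn2 were lost when single arrays were left out, as given with each gene.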

How the results depend on the processing

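The endothelin genes were refitted under up to 18 alternatives per contrast. Of the refitted differences, 307 kept their sign and their side of the threshold, 33 kept the sign and lost the call, and 7 changed sign, all with a value that passed in neither fit. The changes of sign were Edn3 in ICC-DMP against tissue under quantile normalization (-0.04; -0.13 to 0.32 over single arrays left out), Ednrb in the mean of both classes against tissue without the 2 narrow-range arrays (-0.06; -0.10 to 0.25 over single arrays left out), and Edn2 in that mean (-0.31 to 0.01 over single arrays left out). The count of endothelin genes called in ICC-MY against tissue was 4, and 2 with only the groups compared and with limma-trend, and 2 to 4 with single arrays left out. Between the classes it was 4, and 2 to 4 with single arrays left out. The replicate block changed no call of an endothelin gene: for example, Edn3 between the classes was 3.62 (adjusted p = 6.07e-05).

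Over all genes, quantile normalization raised the calls to 3911 from 2516 in ICC-MY against tissue, to 3129 from 2009 in ICC-DMP, to 2557 from 1577 between the classes and to 3746 from 2366 for the mean. The count was 1520 in ICC-MY with only the groups compared, and 3044 genes in ICC-DMP with every probe set counted. In ICC-DMP it was 1264 without ICC-DMP replicate 1 and 1296 without replicate 2. Between the classes it was 991 and 996 without the same arrays, 2617 with the replicate block, 2630 without the 2 narrow-range arrays and 2646 with array weights. The cause was not tested, beyond the fewer arrays in a fit that leaves one out. Low signal limits Edn1 and Edn2, which had no value under the filter on dim probe sets.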
